A study of Rattus norvegicus with 12 samples.

Results

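The genes described here run mitosis and the spindle: 40 genes named in a list, from Cdk1, the kinase that starts mitosis, to Anln, a scaffold of the ring that cuts the cell apart. Rows were taken from the deposited count table by gene symbol, and all 40 were found among its 30454 gene rows. Each of the 40 also passed the filter on low counts, with 13692 genes tested in all. RNA had been sequenced in 12 libraries from rat cells labelled PC12, a line derived from a rat adrenal medulla tumour. The rTMS-MSCs group (4 libraries) had received mesenchymal stem cells and repetitive transcranial magnetic stimulation at 10 Hz after oxygen-glucose deprivation and reoxygenation. The MSCs group (4 libraries) had received the stem cells after the same deprivation, and the OGDR group (4 libraries) had gone through deprivation and reoxygenation with neither treatment. Every group thus shared the injury, and all were taken at 48 h. No group without deprivation was analysed here. The labels do not give the species of the stem cells or how they were combined with the PC12 cells. They also do not say that the libraries of a group came from different cultures, and p-values then measure only the spread between these samples, which may be technical.

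A dividing cell enters mitosis when Cdk1, bound to a B-type cyclin and freed of inhibitory phosphates by the Cdc25 phosphatases, phosphorylates many proteins at once. Kinetochores then attach chromosomes to spindle microtubules, the spindle checkpoint holds the cell until all are attached, and the anaphase-promoting complex with Cdc20 releases separase from securin, the product of Pttg1. Kinesins and microtubule bundlers build the central spindle, on which the contractile ring of cytokinesis forms. The transcripts of most of these genes peak in G2 and mitosis, so their level in a culture follows how many cells are in those phases as well as the level per cell. In these bulk samples more dividing cells and more RNA per dividing cell cannot be told apart.

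In human and mouse cells, many genes of this kind carry a CHR element near the start of transcription, a binding site of MuvB complexes, often with CCAAT boxes, which NF-Y binds. Promoter sequences from RefSeq (rat build GRCr8, 250 bases before to 50 bases after the start of transcription) matched 34 of the 40 genes by symbol. The set held 33469 promoters of 27457 genes, and only the first listed for each gene was searched. Matches at other starts of a gene were not counted. Ccna2, Aurkb, Tpx2, Ube2c, Racgap1 and Foxm1 had no entry in that set. Shown here are the promoters of the 6 genes that differed between rTMS-MSCs and MSCs cells, and of Kif20a, which had the smallest adjusted p of the 40 genes against OGDR cells. Capitals mark every match of the CHR letters TTTGAA and of CCAAT on either strand (read as TTCAAA and ATTGG on the printed strand), and in these 7 promoters no match overlaps another. The promoter of Cdk1 lies at chr20:19265043-19265342 (+ strand), that of Pttg1 at chr10:28406277-28406576 (- strand), that of Cenpa at chr6:31431503-31431802 (- strand), that of Cenpf at chr13:103760837-103761136 (- strand), that of Anln at chr8:29197464-29197763 (- strand), that of Kif11 at chr1:244536617-244536916 (+ strand) and that of Kif20a at chr18:26504172-26504471 (+ strand). Each is printed 5′ to 3′ along the gene.
Cdk1: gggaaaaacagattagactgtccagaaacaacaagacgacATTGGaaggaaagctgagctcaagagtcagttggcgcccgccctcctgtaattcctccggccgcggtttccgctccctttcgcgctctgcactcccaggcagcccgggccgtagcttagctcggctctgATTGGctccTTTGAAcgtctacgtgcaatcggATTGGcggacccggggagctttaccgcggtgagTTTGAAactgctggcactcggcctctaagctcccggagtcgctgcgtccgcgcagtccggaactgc
Pttg1: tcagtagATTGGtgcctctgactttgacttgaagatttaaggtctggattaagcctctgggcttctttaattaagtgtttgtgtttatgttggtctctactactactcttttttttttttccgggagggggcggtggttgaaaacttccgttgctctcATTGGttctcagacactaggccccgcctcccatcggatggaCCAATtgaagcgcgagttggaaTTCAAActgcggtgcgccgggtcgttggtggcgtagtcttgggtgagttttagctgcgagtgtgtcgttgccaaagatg
Cenpa: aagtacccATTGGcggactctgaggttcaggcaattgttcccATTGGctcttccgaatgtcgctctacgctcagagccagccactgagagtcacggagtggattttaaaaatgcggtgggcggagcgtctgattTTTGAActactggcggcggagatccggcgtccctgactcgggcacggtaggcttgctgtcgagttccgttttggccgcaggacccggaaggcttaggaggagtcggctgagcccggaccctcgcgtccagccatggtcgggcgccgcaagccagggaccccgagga
Cenpf: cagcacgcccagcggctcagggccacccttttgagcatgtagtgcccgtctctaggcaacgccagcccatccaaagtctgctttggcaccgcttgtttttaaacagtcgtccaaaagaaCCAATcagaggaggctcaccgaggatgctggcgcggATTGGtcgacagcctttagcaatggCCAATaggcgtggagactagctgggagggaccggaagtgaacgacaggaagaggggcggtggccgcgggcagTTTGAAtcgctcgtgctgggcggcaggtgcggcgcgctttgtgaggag
Anln: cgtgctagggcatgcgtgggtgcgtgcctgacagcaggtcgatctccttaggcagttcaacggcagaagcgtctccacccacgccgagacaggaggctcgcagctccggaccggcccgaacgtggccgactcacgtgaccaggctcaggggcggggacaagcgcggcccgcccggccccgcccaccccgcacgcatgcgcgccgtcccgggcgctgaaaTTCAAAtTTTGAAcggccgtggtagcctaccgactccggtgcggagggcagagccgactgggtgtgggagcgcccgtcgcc
Kif11: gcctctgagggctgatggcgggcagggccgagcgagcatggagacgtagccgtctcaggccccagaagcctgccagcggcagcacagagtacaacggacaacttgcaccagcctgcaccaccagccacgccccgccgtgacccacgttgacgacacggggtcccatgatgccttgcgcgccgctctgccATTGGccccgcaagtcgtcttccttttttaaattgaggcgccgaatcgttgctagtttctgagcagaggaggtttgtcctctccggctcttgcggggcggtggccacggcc
Kif20a: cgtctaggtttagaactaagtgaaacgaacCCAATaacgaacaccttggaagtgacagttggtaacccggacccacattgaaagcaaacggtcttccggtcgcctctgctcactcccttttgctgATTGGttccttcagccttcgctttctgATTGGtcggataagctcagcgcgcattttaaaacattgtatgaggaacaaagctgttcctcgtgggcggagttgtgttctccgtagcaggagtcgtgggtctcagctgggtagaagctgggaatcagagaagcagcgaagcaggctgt

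The letters TTTGAA occurred in 25 of the 34 promoters (73.5%). They occurred in 1129 of 9739 promoters of the other tested genes (11.6%) and in 4962 of all 27457 promoters searched (18.1%). Within 100 bases of the start they occurred in 24 of the 34 (70.6%), against 4.69% of the other tested genes and 8.01% of all promoters. CCAAT occurred in 25 promoters (73.5%), against 38.2% of the other tested genes and 37.7% of all promoters. Both motifs stood together in 19 promoters (55.9%), against 4.70% of the other tested genes and 7.25% of all promoters. The variant TTCGAA, also read as a CHR element, occurred in 4 promoters (11.8%), those of Bub1b, Bub3, Cdc25b and Top2a, against 2.1% of the other tested genes and 1.77% of all promoters. These shares describe letters in a window, and a match is neither a site nor a cause.

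Cdk1 carried TTTGAA at positions -72 and -16 from the start, and Ccnb2 carried it at -214 and -43 with 3 CCAAT boxes at -134, -101 and -68, each 33 bases from the next on the same strand. Neighbouring CCAAT boxes 30 to 36 bases apart on 1 strand occurred in 6 of the 34 promoters (17.6%), against 2.08% of the other tested genes: Ccnb1, Ccnb2, Cdc25c, Cdk1, Cenpa and Hmmr. At any spacing, 2 or more CCAAT on 1 strand occurred in 16 of the 34 (47.1%), against 10.4% of the other tested genes. The spacing share thus also reflects how often such boxes occur together. The promoter of Anln held TTTGAA on both strands at -31 and -24 and no CCAAT, while those of Kif11 and Kif20a held CCAAT and no TTTGAA. None of the 3 motifs was found in the windows of Bub1, Aurka and Kif2c. As a description of these libraries, the 25 genes with TTTGAA had a median log2 fold change of 0.02 between rTMS-MSCs and OGDR cells, against 0.06 for the 9 without it. Between rTMS-MSCs and MSCs cells the medians were -0.04 and -0.03, and between MSCs and OGDR cells 0.08 and 0.04.

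**Figure D1:**
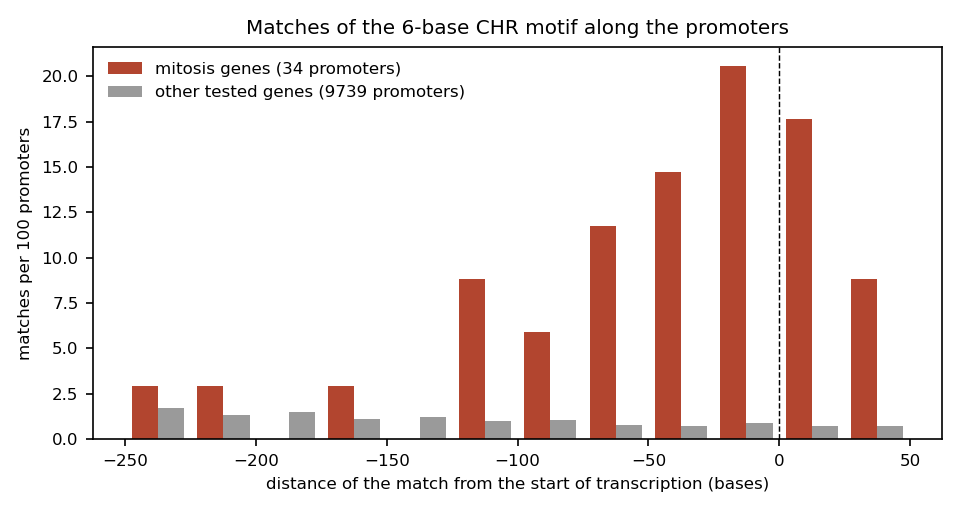
Matches of TTTGAA on either strand per 100 promoters (y axis) by distance from the start of transcription in bases (x axis, bins of 25 bases), for the 34 mitosis gene promoters and the 9739 promoters of other tested genes. Matches in the mitosis genes gather in the bins around the start, where the other genes stay level at the foot of the plot.

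Each library held between 18246250 and 20471838 reads counted in genes, and reads on no annotated feature made up 51.7% to 52.7%. Library rTMS-MSCs 3 stood apart from its group: the chi-square per degree of freedom of its counts against the other rTMS-MSCs libraries was 13.4 to 24.9, and 4.02 to 10.4 for every other pair of libraries within a group. No 2 libraries agreed within sampling noise. Of the 40 genes, rTMS-MSCs 3 was the lowest of its group in 22 and the highest in 9. This rank count did not set it apart: MSCs 2 was the lowest of its group in 20. Libraries rTMS-MSCs 4 and MSCs 4 were each the highest of their group in 22. Ribosomal protein transcripts took 2.76% to 3.49% of counts in rTMS-MSCs libraries (highest in library 3), 2.44% to 2.69% in MSCs and 2.88% to 3.12% in OGDR libraries, and mitochondrial transcripts took 2.83% to 3.29% in rTMS-MSCs, 2.56% to 3.05% in MSCs and 3.29% to 3.73% in OGDR libraries. Markers went against the PC12 label: of 10 chromaffin genes, Ddc was at 0 in all libraries, Th, Dbh and Chga averaged under 1 CPM (read counts scaled to library size), and Scg2 (secretogranin II) at 234 CPM was the sole gene at 1 CPM or more. All 7 glial and Schwann cell markers were present, with Sox10 at 397 CPM and S100b at 257 CPM. Their sum was 1042 to 1150 CPM in rTMS-MSCs, 1064 to 1137 CPM in MSCs and 905 to 985 CPM in OGDR libraries, and the chromaffin sum was 199.6 to 214 CPM in rTMS-MSCs, 189 to 233 CPM in MSCs and 272 to 339 CPM in OGDR libraries. Single glial and Schwann markers went different ways. Erbb3 averaged 114 CPM in rTMS-MSCs, 167 CPM in MSCs and 144 CPM in OGDR libraries. In the same order S100b averaged 289, 243 and 241 CPM, and Ngfr 217, 217 and 158 CPM. Of 9 stromal markers, 4 reached 1 CPM, Lum was at 0, and the sum, mostly Fn1 (fibronectin), was 2541 to 2934 CPM in rTMS-MSCs, 3105 to 3456 CPM in MSCs and 2982 to 3195 CPM in OGDR libraries. Of 6 macrophage markers 1 reached 1 CPM and Adgre1 was at 0, with sums of 2.51 to 3.95 CPM in rTMS-MSCs, 2.32 to 3.13 CPM in MSCs and 2.71 to 4.63 CPM in OGDR libraries. Of 5 endothelial markers 2 did and Kdr was at 0, with sums of 84.3 to 93.8 CPM in rTMS-MSCs, 89.6 to 96.8 CPM in MSCs and 88.1 to 102 CPM in OGDR libraries. The part of these differences in the results that follow was not tested.

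With both treatments, rTMS-MSCs against OGDR, the mitosis genes differed most often: 11 were higher and 3 lower of 40 (edgeR quasi-likelihood test in 1 fit of all 12 libraries, Benjamini-Hochberg adjusted p under 0.05 over all tested genes). Higher were the mitotic kinases Cdk1, Aurkb and Plk1, the cyclin Ccnb2, the anaphase genes Cdc20 and Pttg1, the checkpoint gene Bub3, the centromere histone Cenpa, the kinesin Kif20a and the spindle genes Tpx2 and Nusap1. Lower were Anln, Bub1 and Kif11. The changes were small, 0.14 to 0.41 on the log2 scale in size. The share called, 35% of the 40, stood beside 32.4% of all tested genes, with 16.2% of all genes called higher and 16.2% lower. The median log2 fold change was 0.09 over the 40 genes and 0.01 over all tested genes. Anln was the single gene called lower without OGDR 3, without OGDR 4 or without rTMS-MSCs 3, and 11 genes were higher without rTMS-MSCs 3. The 2 groups did not overlap in 15 of the 40 genes, 10 of them called, beside 30.3% of all tested genes. DESeq2 called 17 of the 40, beside 33.5% of all genes it tested.

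Adding stimulation to the stem cells, rTMS-MSCs against MSCs, gave 3 genes higher (Pttg1, Cdk1 and Cenpa) and 3 lower (Anln, Kif11 and Cenpf). This is 15% of the 40, beside 18.1% of all tested genes (7.14% higher and 10.9% lower). The median was -0.03 over the 40 genes and 0.02 over all genes, and 16 of the 40 had a positive fold change. The count moved with single libraries. There were 3 without MSCs 1, 3 without MSCs 3, 3 without rTMS-MSCs 3 and 11 without rTMS-MSCs 4. In those fits 9.49%, 7.27%, 10.7% and 23.1% of all tested genes were called. With MSCs 3 and rTMS-MSCs 3 both left out, edgeR called 1 gene, Anln, and 677 of all tested genes (4.9%) in place of 2475. With those libraries left out DESeq2 called 2 other genes, Cdk1 (DESeq2 adjusted p = 0.0236) and Pttg1 (DESeq2 adjusted p = 0.0253), and not Anln. The share of all genes that DESeq2 called in that setting was not computed.

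The stem cells alone, MSCs against OGDR, gave 5 genes higher: Aurkb, Kif20a, Cenpf, Cdc25b and Prc1. No gene of the 40 was called lower by edgeR, by DESeq2 or at an unadjusted p under 0.05, at which 15 were higher (beside 16.7% of all tested genes higher and 15.3% lower at that p). The share called was 12.5%, beside 20.2% of all tested genes (11.6% higher and 8.63% lower). The median was 0.08 over the 40 genes and -0.00 over all genes, and 31 of the 40 had a positive fold change. DESeq2 called 9 genes higher, beside 22.1% of all genes it tested in either direction, and edgeR called 3 without MSCs 1, beside 16.2%. With MSCs 3 and rTMS-MSCs 3 both left out edgeR called 9, adding Ccnb2, Cdc20, Kif4a and Racgap1, beside 22.7%. The 3 comparisons share their libraries and are not independent of each other.

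**Figure D2:**
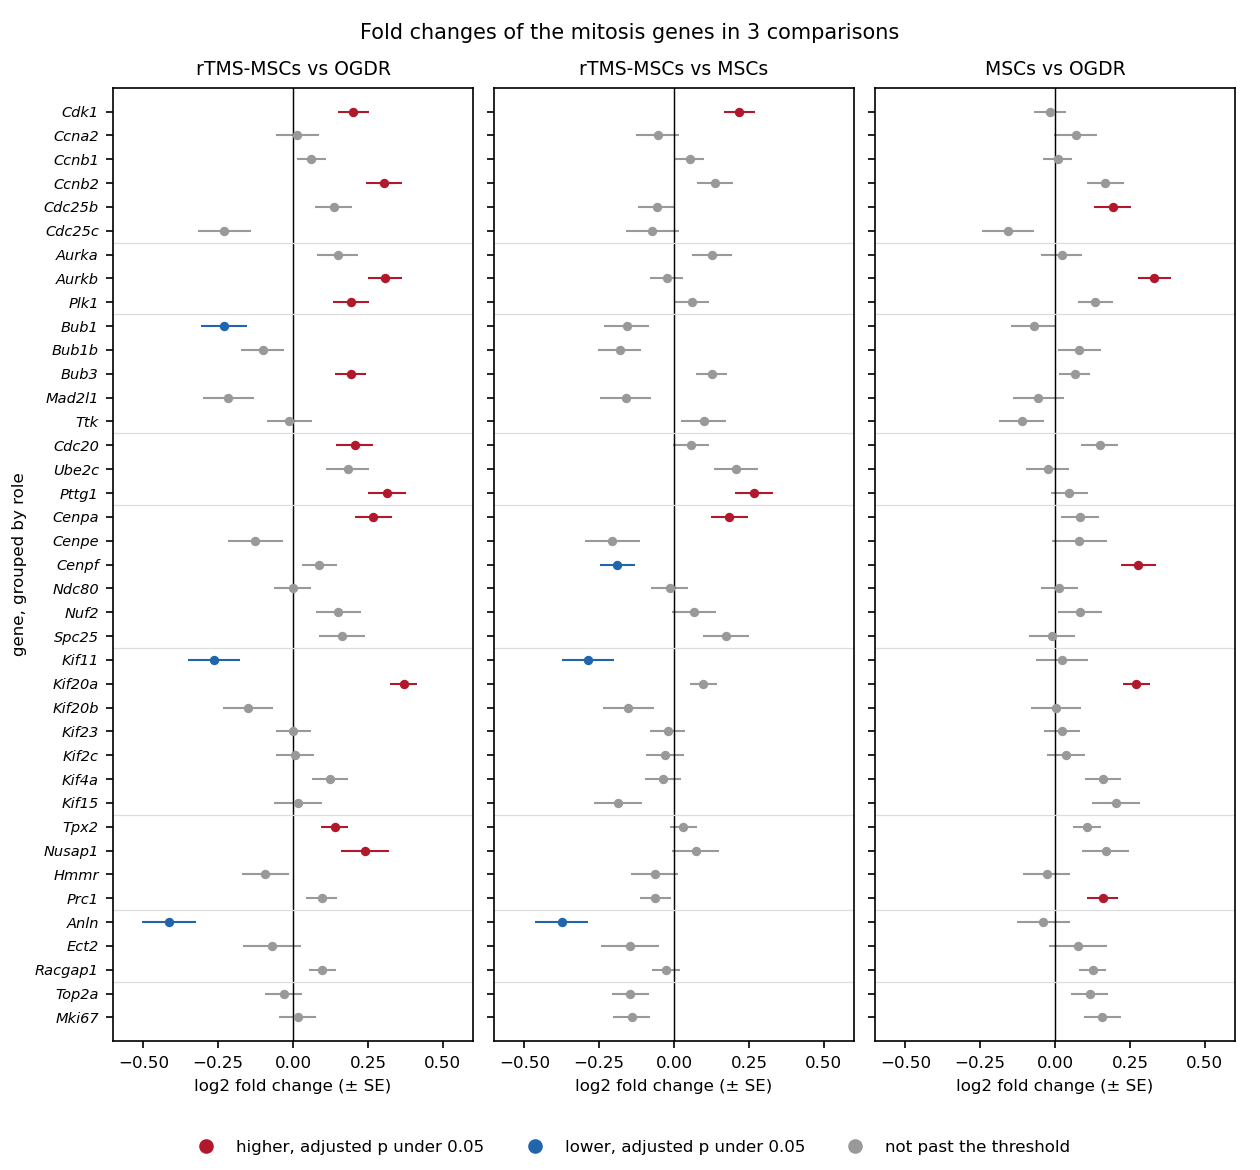
Log2 fold change ± SE (x axis) of 39 mitosis genes (y axis, grouped by role) in rTMS-MSCs against OGDR, rTMS-MSCs against MSCs and MSCs against OGDR, 4 libraries a group. Red and blue points passed an adjusted p of 0.05. Foxm1, with few counts, is left out. Most points lie within 0.25 of 0, and Anln stands lowest in both comparisons of rTMS-MSCs.

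Over the 3 comparisons edgeR called 17 of the 40 genes at least once, beside 44% of all tested genes, 8 of the 17 in 2 comparisons, and 23 in none. DESeq2 called 22 of the 40 at least once, beside 47.2% of all genes it tested. No called change reached 2-fold. The summed level of the 40 genes was 5717 ± 225 CPM in rTMS-MSCs, 5848 ± 154 CPM in MSCs and 5474 ± 86.1 CPM in OGDR libraries (SD, n = 4 each). In the heat map of all libraries the treated groups hold both raised and lowered rows. Within the rTMS-MSCs group library 3 was lowest in 22 of the 40 and library 4 highest in 22. The MSCs group was alike, with library 2 lowest in 20 and library 4 highest in 22. The rows of Aurkb and Kif20a are raised in every treated library, that of Anln is low in rTMS-MSCs 1 to 3, and the deepest blue cells are those of Anln and Kif11 in rTMS-MSCs 3.

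**Figure D3:**
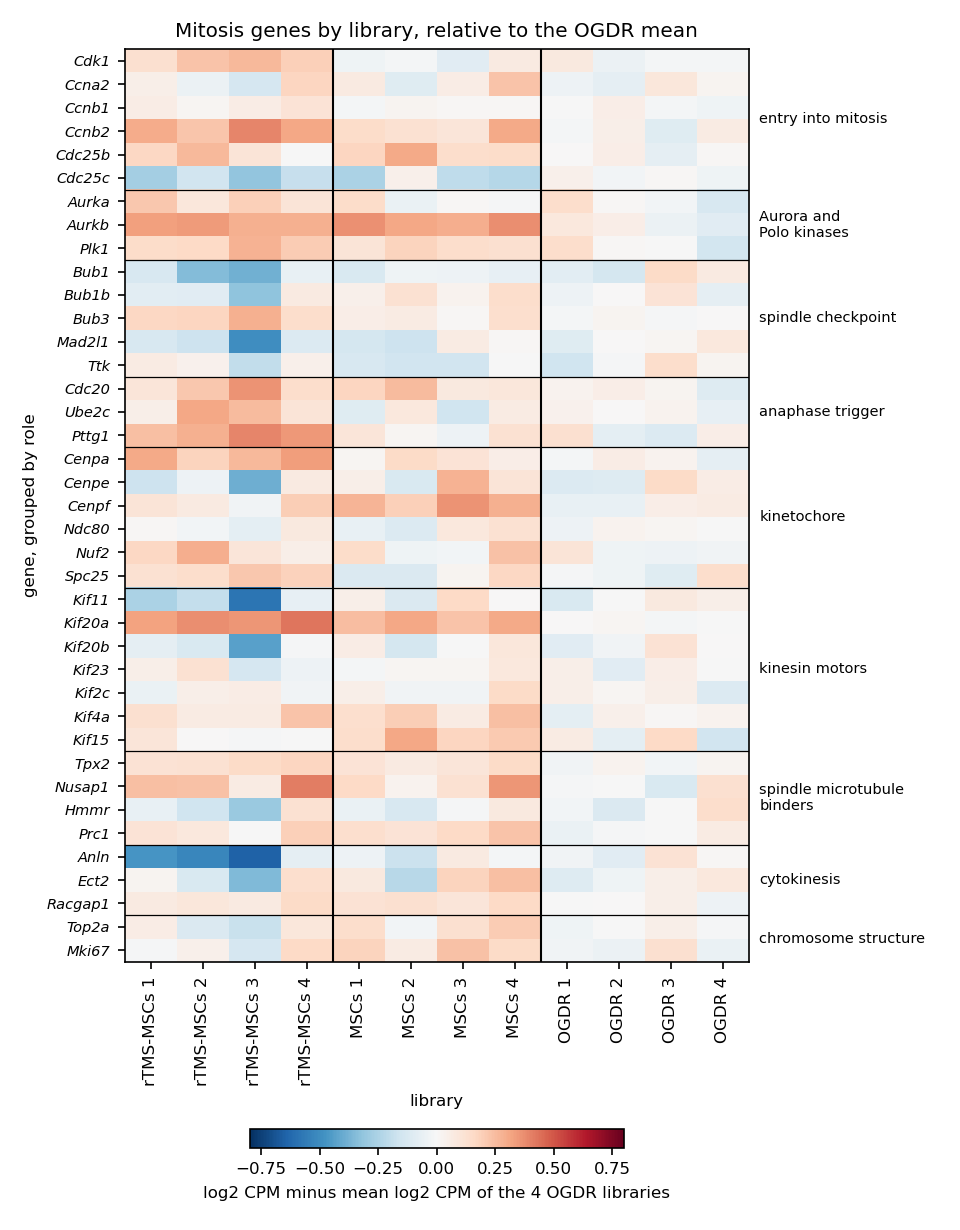
Log2 CPM of 39 mitosis genes (rows, grouped by role, Foxm1 left out) in each library (columns) minus the mean log2 CPM of the 4 OGDR libraries. Red is higher and blue lower than that mean. Within their group rTMS-MSCs 3 holds the lowest value in 22 of the 40 genes and rTMS-MSCs 4 the highest in 22. In the MSCs group library 2 is lowest in 20 and library 4 highest in 22.

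Entry into mitosis is represented by 7 genes. Cdk1, the mitotic kinase, had 215, 229.9, 235 and 224 CPM in rTMS-MSCs libraries 1 to 4, 192, 194, 184 and 207 CPM in MSCs libraries and 207, 190.0, 195 and 194 CPM in OGDR libraries. All 4 rTMS-MSCs values lay above all 8 others, and the MSCs and OGDR values overlapped. Its log2 fold change was 0.22 ± 0.05 against MSCs (edgeR adjusted p = 0.00901) and 0.20 ± 0.05 against OGDR (edgeR adjusted p = 0.00627). Against MSCs it passed in all 8 fits that left out 1 library, and with MSCs 3 and rTMS-MSCs 3 both left out it was 0.17 (edgeR adjusted p = 0.0704). MSCs cells did not differ detectably from OGDR cells in Cdk1, with a 95% interval of the log2 fold change of -0.13 to 0.09.

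Ccnb1, the main partner cyclin of Cdk1, passed in no comparison. It had 176, 171, 176 and 183 CPM in rTMS-MSCs, 168, 172, 171 and 171 CPM in MSCs and 169, 176, 168 and 165 CPM in OGDR libraries. The ranges overlapped in every comparison, and the 95% intervals of the log2 fold change were -0.04 to 0.16 for rTMS-MSCs against OGDR, -0.05 to 0.15 for rTMS-MSCs against MSCs and -0.09 to 0.11 for MSCs against OGDR. Ccnb2, the second B-type cyclin, had 127, 121, 136 and 128 CPM in rTMS-MSCs, 114, 113, 111 and 128 CPM in MSCs and 103, 107, 96.9 and 108 CPM in OGDR libraries. All rTMS-MSCs values lay above all OGDR values. The log2 fold change of Ccnb2 against OGDR was 0.30 ± 0.06 with both treatments (edgeR adjusted p = 0.000784). The MSCs values also lay above the OGDR values, which passed in DESeq2 (adjusted p = 0.0344) and not in edgeR (adjusted p = 0.0594). The difference in response between the 2 cyclins was not tested.

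Cdc25b and Cdc25c encode phosphatases that activate Cdk1. Cdc25b had 123, 132, 118 and 109.7 CPM in rTMS-MSCs, 124, 136, 121 and 122 CPM in MSCs and 110.2, 114, 105 and 111 CPM in OGDR libraries. Its log2 fold change in MSCs against OGDR was 0.19 ± 0.06 (edgeR adjusted p = 0.0312), with no overlap, and the call was lost without OGDR 1, OGDR 3, OGDR 4, MSCs 1 or MSCs 2, up to an adjusted p of 0.119. Cdc25c had 20.0, 21.7, 19.4 and 21.2 CPM in rTMS-MSCs, 20.2, 24.8, 20.9 and 20.6 CPM in MSCs and 24.8, 23.8, 24.3 and 23.6 CPM in OGDR libraries. Every rTMS-MSCs value lay below every OGDR value, which passed in DESeq2 (adjusted p = 0.0352) and not in edgeR (adjusted p = 0.0511). Ccna2, cyclin A2, spanned 123 to 153 CPM in rTMS-MSCs, 127 to 159 CPM in MSCs and 129 to 144 CPM in OGDR libraries, with wide overlap.

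Foxm1, a transcription factor that activates many of these genes in human and mouse cells, was barely counted. It had 6, 14, 15 and 13 reads in rTMS-MSCs, 17, 13, 21 and 12 reads in MSCs and 10, 7, 10 and 6 reads in OGDR libraries, which is 0.299 to 1.14 CPM over all 12. MSCs was the only group with at least 10 reads in all 4 libraries. Foxm1 thus passed the filter on low counts through treated libraries. As a description only, the MSCs values lay above the OGDR values, with a log2 fold change of 1.00 ± 0.41 that did not pass (edgeR adjusted p = 0.0932). At this depth the 95% interval of that change ran over 0.15 to 1.86.

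Of the Aurora and Polo kinases, Aurkb stood highest above OGDR in both treated groups. Aurkb, the enzyme of the chromosomal passenger complex that corrects faulty attachments and steers cytokinesis, had 117, 118, 113 and 113 CPM in rTMS-MSCs, 119.8, 115, 114 and 120.1 CPM in MSCs and 98.5, 96.6, 90.0 and 87.5 CPM in OGDR libraries. All 8 treated values lay above all 4 OGDR values, and the treated groups overlapped. The log2 fold change was 0.31 ± 0.06 in rTMS-MSCs against OGDR (edgeR adjusted p = 0.000282) and 0.33 ± 0.06 in MSCs against OGDR (edgeR adjusted p = 0.000152), and both passed under every alternative run. Between rTMS-MSCs and MSCs the 95% interval was -0.14 to 0.09.

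Plk1, the Polo kinase that acts from mitotic entry to cytokinesis, had 185, 186, 202 and 192 CPM in rTMS-MSCs, 179, 189, 184 and 182 CPM in MSCs and 184, 168, 166 and 150.3 CPM in OGDR libraries. The OGDR values spread most, and all rTMS-MSCs values lay above them. The log2 fold change in rTMS-MSCs against OGDR was 0.19 ± 0.06 (edgeR adjusted p = 0.0160). Without OGDR 4, the lowest library, it was 0.14 (edgeR adjusted p = 0.0724). Aurka, the kinase of spindle poles, spanned 76.8 to 83.6 CPM in rTMS-MSCs, 69.4 to 79.7 CPM in MSCs and 65.9 to 79.5 CPM in OGDR libraries and passed in no comparison.

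Of 5 spindle checkpoint genes, 1 was higher and 1 lower in rTMS-MSCs against OGDR. Bub3, a binding partner of the checkpoint kinases at kinetochores, had 161, 161, 174 and 158 CPM in rTMS-MSCs, 149, 149.8, 144 and 157 CPM in MSCs and 142, 146, 142 and 143 CPM in OGDR libraries. The rTMS-MSCs values lay above all others. The log2 fold change of Bub3 in rTMS-MSCs was 0.19 ± 0.05 against OGDR (edgeR adjusted p = 0.00739) and against MSCs did not pass in edgeR (adjusted p = 0.0916) but did in DESeq2 (adjusted p = 0.0417). Bub1, a checkpoint kinase, had 124, 106, 104 and 129.9 CPM in rTMS-MSCs, 124, 132, 132 and 129 CPM in MSCs and 128, 123, 151 and 143 CPM in OGDR libraries. The lowest 2 values were in rTMS-MSCs 2 and 3, and the rTMS-MSCs and OGDR ranges overlapped. Bub1 fell in rTMS-MSCs against OGDR by a log2 fold change of -0.23 ± 0.08 (edgeR adjusted p = 0.0249). The call was lost without OGDR 3, OGDR 4, rTMS-MSCs 2 or rTMS-MSCs 3, and was -0.18 without rTMS-MSCs 3 (edgeR adjusted p = 0.0618) and -0.18 with MSCs 3 left out too (edgeR adjusted p = 0.0552).

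The other checkpoint genes passed in no comparison by edgeR. Mad2l1, whose product inhibits Cdc20, had 52.2, 50.9, 40.3 and 52.9 CPM in rTMS-MSCs, 51.6, 50.9, 59.7 and 57.4 CPM in MSCs and 53.2, 57.1, 57.6 and 60.3 CPM in OGDR libraries. Its rTMS-MSCs values lay below its OGDR values, with library 3 lowest, which passed in DESeq2 (adjusted p = 0.0475) and not in edgeR (adjusted p = 0.0565). Bub1b, a Cdc20 inhibitor of the same complex, spanned 78.4 to 103 CPM in rTMS-MSCs, 99.8 to 108 CPM in MSCs and 93.1 to 106 CPM in OGDR libraries. Ttk, the kinase that starts the checkpoint signal, spanned 60.3 to 72.3 CPM in rTMS-MSCs, 62.1 to 68.9 CPM in MSCs and 62.0 to 76.2 CPM in OGDR libraries.

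Among the anaphase genes, Pttg1 had the smallest adjusted p of the 40 genes between rTMS-MSCs and MSCs. Pttg1, which encodes securin, the inhibitor of separase, had 139, 143, 153 and 149 CPM in rTMS-MSCs, 125, 119, 114 and 128 CPM in MSCs and 128, 111, 109 and 122 CPM in OGDR libraries. All 4 rTMS-MSCs values lay above all 8 others. The log2 fold change of Pttg1 was 0.27 ± 0.06 against MSCs (edgeR adjusted p = 0.00756) and 0.31 ± 0.06 against OGDR (edgeR adjusted p = 0.000709). With MSCs 3 and rTMS-MSCs 3 both left out, the value against MSCs was 0.21 (edgeR adjusted p = 0.0554), and it passed in all 8 fits that left out 1 library.

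Cdc20, the activator of the anaphase-promoting complex, had 219.8, 238, 263 and 226 CPM in rTMS-MSCs, 231, 244, 217 and 219 CPM in MSCs and 209, 213, 209 and 191 CPM in OGDR libraries. Every treated value lay above every OGDR value, and rTMS-MSCs 3 was highest. Cdc20 rose in rTMS-MSCs against OGDR by 0.21 ± 0.06 on the log2 scale (edgeR adjusted p = 0.0148), which was 0.17 without OGDR 4 (edgeR adjusted p = 0.0652) and 0.15 without rTMS-MSCs 3 (edgeR adjusted p = 0.0446). Ube2c, the ubiquitin-conjugating enzyme of the same complex, had 78.3, 94.2, 90.6 and 81.5 CPM in rTMS-MSCs, 71.0, 80.4, 68.0 and 79.3 CPM in MSCs and 77.8, 76.2, 77.4 and 72.5 CPM in OGDR libraries. Its rTMS-MSCs values lay just above its OGDR values and did not pass in edgeR (adjusted p = 0.0582 against OGDR and 0.0512 against MSCs). DESeq2 called Ube2c higher in rTMS-MSCs in both comparisons (adjusted p = 0.0482 against OGDR and 0.0309 against MSCs).

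At the kinetochore, Cenpa and Cenpf were both called in rTMS-MSCs against MSCs, Cenpa higher and Cenpf lower. Cenpa, the histone H3 variant that marks the centromere, had 76.8, 70.6, 74.6 and 78.5 CPM in rTMS-MSCs, 62.9, 69.5, 67.4 and 64.7 CPM in MSCs and 61.6, 65.1, 63.5 and 59.3 CPM in OGDR libraries. All rTMS-MSCs values lay above all others. Its log2 fold change was 0.27 ± 0.06 against OGDR (edgeR adjusted p = 0.00264) and 0.18 ± 0.06 against MSCs (edgeR adjusted p = 0.0460). The call against MSCs was lost without MSCs 1, MSCs 3, MSCs 4, rTMS-MSCs 1, rTMS-MSCs 3 or rTMS-MSCs 4, up to an adjusted p of 0.134, with values of 0.16 to 0.20 in those 6 fits. It was also lost with no filter on low counts, in a fit of the 8 libraries compared (edgeR adjusted p = 0.0812) and with MSCs 3 and rTMS-MSCs 3 both left out (edgeR adjusted p = 0.112).

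Cenpf, a large kinetochore protein that peaks in G2 and mitosis, had 162, 158, 148 and 173 CPM in rTMS-MSCs, 182, 172, 193 and 183 CPM in MSCs and 144, 144, 156 and 157 CPM in OGDR libraries. Every MSCs value lay above every OGDR value, and rTMS-MSCs values overlapped both. Cenpf rose in MSCs against OGDR by 0.28 ± 0.06 on the log2 scale (edgeR adjusted p = 0.00168), under every alternative run. It fell in rTMS-MSCs against MSCs, with a log2 fold change of -0.19 ± 0.06 (edgeR adjusted p = 0.0318), a call lost without MSCs 1, MSCs 3, MSCs 4, rTMS-MSCs 2 or rTMS-MSCs 3. Without rTMS-MSCs 3 it was -0.15 (edgeR adjusted p = 0.0859), and with MSCs 3 left out too -0.13 (edgeR adjusted p = 0.238). A fit of the 8 libraries compared also missed the threshold (edgeR adjusted p = 0.0512).

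Ndc80, Nuf2 and Spc25 encode subunits of the Ndc80 complex, which grips microtubules, and Cenpe encodes a kinesin of the kinetochore. None of the 4 was called by edgeR in any comparison. Ndc80 spanned 87.5 to 97.6 CPM in rTMS-MSCs, 85.8 to 100.3 CPM in MSCs and 89.8 to 94.0 CPM in OGDR libraries. Nuf2 spanned 71.2 to 84.3 CPM in rTMS-MSCs, 67.2 to 81.0 CPM in MSCs and 67.0 to 73.9 CPM in OGDR libraries. Spc25 spanned 58.6 to 62.7 CPM in rTMS-MSCs, 49.7 to 60.5 CPM in MSCs and 50.3 to 59.5 CPM in OGDR libraries. For these 3 subunits the groups overlapped in every comparison. Cenpe spread more widely, over 91.2 to 126 CPM in rTMS-MSCs, 110.1 to 145 CPM in MSCs and 111 to 133 CPM in OGDR libraries, with rTMS-MSCs 3 lowest and MSCs 3 highest of all 12.

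Among 7 mitotic kinesins, Kif20a rose and Kif11 fell. Kif20a, the motor that carries the chromosomal passenger complex to the central spindle, had 335, 348, 343 and 361 CPM in rTMS-MSCs, 318, 333, 314 and 331 CPM in MSCs and 269, 271, 266 and 268 CPM in OGDR libraries. The 4 OGDR values lay within 6 CPM of each other and below all 8 treated values. The log2 fold change was 0.37 ± 0.05 in rTMS-MSCs against OGDR (edgeR adjusted p = 3.87e-06) and 0.27 ± 0.05 in MSCs against OGDR (edgeR adjusted p = 0.000181), and both passed under every alternative run. All rTMS-MSCs values also lay above all MSCs values, a difference that did not pass (edgeR adjusted p = 0.140).

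Kif11, the plus-end motor that pushes spindle poles apart, had 85.6, 89.2, 68.1 and 97.4 CPM in rTMS-MSCs, 105, 94.0, 114 and 102 CPM in MSCs and 93.6, 102, 108 and 105 CPM in OGDR libraries. Library rTMS-MSCs 3 was the lowest of all 12, and rTMS-MSCs 4 lay among the other groups. Kif11 fell in rTMS-MSCs, with a log2 fold change of -0.29 ± 0.09 against MSCs (edgeR adjusted p = 0.0287) and -0.26 ± 0.09 against OGDR (edgeR adjusted p = 0.0256). Without rTMS-MSCs 3 neither passed, at -0.19 (edgeR adjusted p = 0.0756) and -0.17 (edgeR adjusted p = 0.0726). With MSCs 3 and rTMS-MSCs 3 both left out they were -0.15 against MSCs (edgeR adjusted p = 0.235) and -0.17 against OGDR (edgeR adjusted p = 0.0503). The call against MSCs was also lost without MSCs 1 or MSCs 3 and in a fit of the 8 libraries compared (edgeR adjusted p = 0.0515), and that against OGDR without OGDR 3 or OGDR 4.

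The other kinesins passed in no comparison by edgeR with all libraries in the fit. Kif20b, a motor of cytokinesis, spanned 49.7 to 66.9 CPM in rTMS-MSCs, 61.0 to 71.5 CPM in MSCs and 63.1 to 72.7 CPM in OGDR libraries, with rTMS-MSCs 3 lowest. Kif23, the motor of the centralspindlin complex, spanned 147 to 175 CPM in rTMS-MSCs, 159 to 171 CPM in MSCs and 151 to 167 CPM in OGDR libraries. Kif2c, which depolymerises microtubules at centromeres, spanned 72.3 to 78.1 CPM in rTMS-MSCs, 73.5 to 83.3 CPM in MSCs and 69.5 to 77.3 CPM in OGDR libraries. These 3 motors overlapped between all groups. Kif4a, a chromosome-bound kinesin, had 90.6 to 102 CPM in rTMS-MSCs, 90.7 to 102 CPM in MSCs and 82.2 to 89.0 CPM in OGDR libraries, with both treated groups above OGDR. In MSCs against OGDR it missed the threshold in edgeR (adjusted p = 0.0681) and passed in DESeq2 (adjusted p = 0.0386), and in edgeR with MSCs 3 and rTMS-MSCs 3 both left out. Kif15, a motor that backs up Kif11, spanned 34.6 to 37.3 CPM in rTMS-MSCs, 38.5 to 43.2 CPM in MSCs and 31.4 to 39.0 CPM in OGDR libraries. Its rTMS-MSCs values lay below its MSCs values and did not pass (edgeR adjusted p = 0.106).

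Of 4 genes for spindle microtubule binders, 2 were called in rTMS-MSCs against OGDR, beside 32.4% of all tested genes. In MSCs against OGDR 1 was called, beside 20.2%. Tpx2, the activator of Aurora A at the spindle, had 228, 229, 234 and 237 CPM in rTMS-MSCs, 227, 221, 225 and 234 CPM in MSCs and 206, 214, 208 and 214 CPM in OGDR libraries, and all treated values lay above all OGDR values. Its log2 fold change in rTMS-MSCs against OGDR was 0.14 ± 0.05 (edgeR adjusted p = 0.0265), a call lost without OGDR 1, OGDR 3 or rTMS-MSCs 4 and with no filter on low counts (edgeR adjusted p = 0.0846). In MSCs against OGDR, Tpx2 passed in DESeq2 (adjusted p = 0.0364) and not in edgeR (adjusted p = 0.112). Prc1, which bundles microtubules of the central spindle, had 284, 279, 263 and 301 CPM in rTMS-MSCs, 289.7, 285, 294 and 309.6 CPM in MSCs and 255, 262, 263 and 276 CPM in OGDR libraries. Prc1 rose in MSCs against OGDR by 0.16 ± 0.05 on the log2 scale (edgeR adjusted p = 0.0352), without overlap, and the call was lost when OGDR 1, OGDR 2, OGDR 3, MSCs 1, MSCs 3 or MSCs 4 was left out, with values of 0.13 to 0.17 in those 6 fits, and with no filter on low counts (edgeR adjusted p = 0.0506).

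Nusap1, a microtubule stabiliser, had 95.8, 95.7, 85.1 and 108 CPM in rTMS-MSCs, 90.8, 82.8, 88.4 and 104 CPM in MSCs and 80.8, 81.1, 74.6 and 88.9 CPM in OGDR libraries. The groups overlapped, and library 4 was highest in each. Nusap1 rose in rTMS-MSCs against OGDR by 0.24 ± 0.08 (log2, edgeR adjusted p = 0.0254). The call was lost without OGDR 1, OGDR 2, OGDR 3, rTMS-MSCs 2 or rTMS-MSCs 4, and was 0.30 without rTMS-MSCs 3 (edgeR adjusted p = 0.00361). Hmmr, a spindle and hyaluronan binding protein, spanned 81.6 to 109 CPM in rTMS-MSCs, 91.8 to 106 CPM in MSCs and 92.6 to 110.2 CPM in OGDR libraries and was called in no comparison.

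Cytokinesis held the largest called change of the 40 genes. Anln, which encodes anillin, the scaffold that links actin, myosin and RhoA in the contractile ring, had 250.4, 242, 222 and 330.0 CPM in rTMS-MSCs, 337, 309, 365 and 344 CPM in MSCs and 340.3, 326, 376 and 349.6 CPM in OGDR libraries. Libraries rTMS-MSCs 1 to 3 lay below all MSCs and OGDR values, and rTMS-MSCs 4 lay among them, so the groups overlapped. Anln fell in rTMS-MSCs by a log2 fold change of -0.38 ± 0.09 against MSCs (edgeR adjusted p = 0.00803) and -0.41 ± 0.09 against OGDR (edgeR adjusted p = 0.00138). With MSCs 3 and rTMS-MSCs 3 both left out it was -0.27 against MSCs (edgeR adjusted p = 0.0446) and -0.34 against OGDR (edgeR adjusted p = 0.000703). In that setting DESeq2 did not call Anln against MSCs and called it against OGDR (DESeq2 adjusted p = 0.0144). Without rTMS-MSCs 4 the log2 fold change was -0.51 against MSCs (edgeR adjusted p = 0.000195).

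Ect2 and Racgap1 place the ring by activating RhoA at the cell's equator, Ect2 as its exchange factor and Racgap1 as the partner of Kif23. Ect2 had 108, 97.5, 83.1 and 117 CPM in rTMS-MSCs, 112, 91.2, 120.2 and 125 CPM in MSCs and 98.9, 104, 109.8 and 113 CPM in OGDR libraries, with rTMS-MSCs 3 lowest and wide overlap. Racgap1 had 337, 342, 337 and 357 CPM in rTMS-MSCs, 348, 351, 343 and 358 CPM in MSCs and 319.9, 321, 331 and 311 CPM in OGDR libraries. Both treated groups lay above OGDR in Racgap1, and in MSCs against OGDR the difference missed the threshold in edgeR (adjusted p = 0.0580) and passed in DESeq2 (adjusted p = 0.0126).

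The proliferation markers Mki67 and Top2a passed the adjusted test in no comparison. Mki67, which encodes the Ki-67 coat of mitotic chromosomes, had 363, 377, 334 and 408 CPM in rTMS-MSCs, 414, 383, 431 and 407 CPM in MSCs and 358, 354, 400.1 and 353 CPM in OGDR libraries. The ranges overlapped, and the 95% intervals of its log2 fold change were -0.11 to 0.14 for rTMS-MSCs against OGDR, -0.27 to -0.01 for rTMS-MSCs against MSCs and 0.03 to 0.29 for MSCs against OGDR. Top2a, the topoisomerase that untangles sister chromatids, had 372, 330.1, 315 and 380.3 CPM in rTMS-MSCs, 394, 352, 389.9 and 411 CPM in MSCs and 348, 356, 368 and 355 CPM in OGDR libraries. It overlapped likewise, with intervals of -0.16 to 0.10 for rTMS-MSCs against OGDR, -0.28 to -0.02 for rTMS-MSCs against MSCs and -0.01 to 0.24 for MSCs against OGDR. Library rTMS-MSCs 3 was the lowest of its group for both genes.

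**Figure D4:**
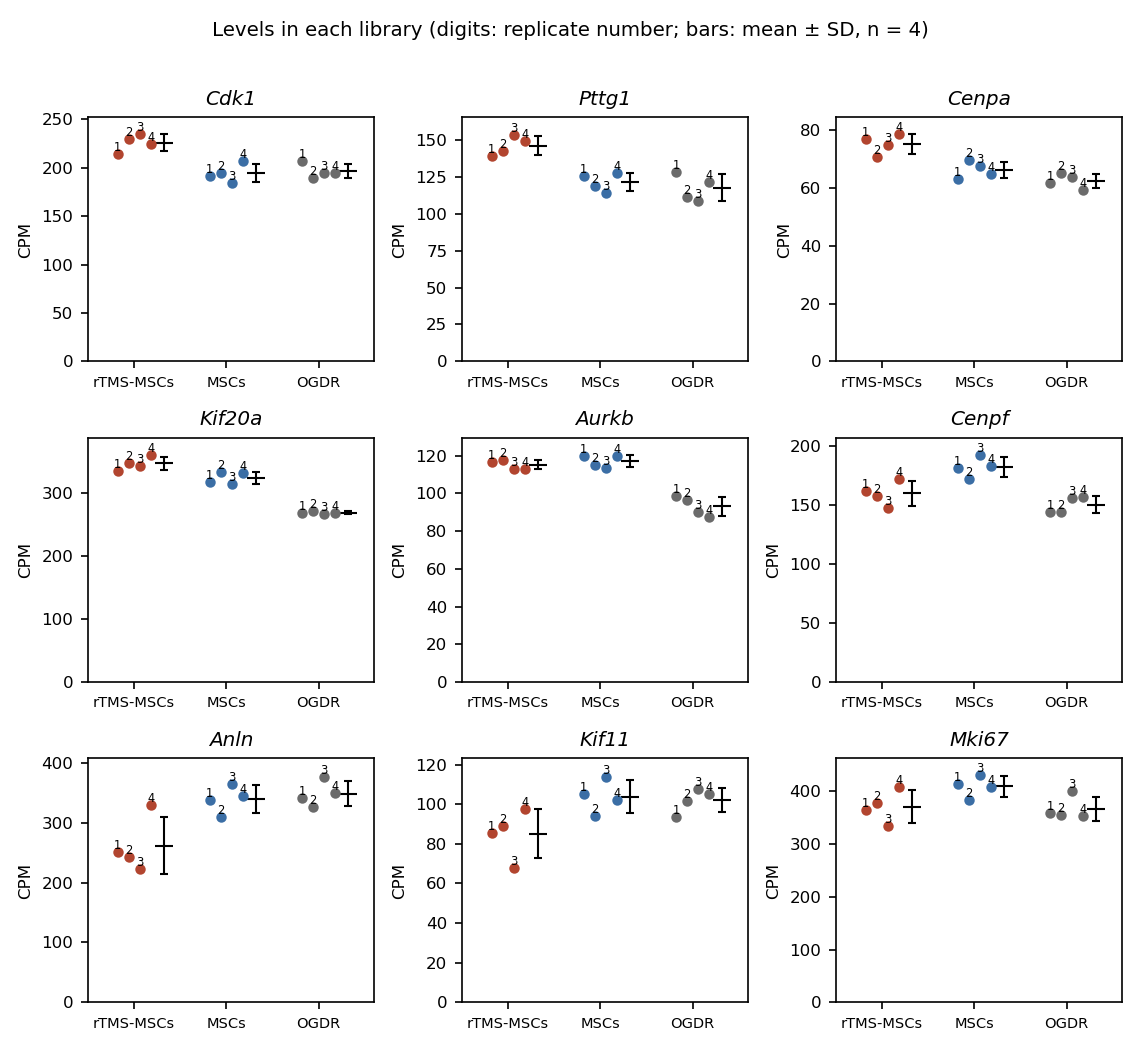
CPM (y axis, from 0) of 9 mitosis genes in each library of rTMS-MSCs, MSCs and OGDR (x axis), with the replicate number above each point and the mean ± SD of 4 libraries as a bar. Cdk1, Pttg1 and Cenpa are higher in every rTMS-MSCs library, Kif20a and Aurkb in every treated library, and Anln and Kif11 are lowest in rTMS-MSCs 3.

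Around these 40 genes, 11 lists of neighbouring pathways held 207 genes, 195 of them tested. In rTMS-MSCs against OGDR 53 were higher and 26 lower (27.2% and 13.3%, against 16.2% and 16.2% of all tested genes). In rTMS-MSCs against MSCs 21 were higher and 29 lower (10.8% and 14.9%, against 7.14% and 10.9%), and in MSCs against OGDR 33 were higher and 6 lower (16.9% and 3.08%, against 11.6% and 8.63%).

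Of genes that brake the cell cycle, those past the adjusted threshold were higher. Wee1, the kinase that puts the inhibitory phosphate on Cdk1, had 72.8 ± 6.97 CPM in rTMS-MSCs, 79.4 ± 5.11 CPM in MSCs and 39.5 ± 1.97 CPM in OGDR libraries (SD, n = 4 each). Its log2 fold change was 0.88 ± 0.08 in rTMS-MSCs against OGDR (edgeR adjusted p = 2.62e-08) and 1.01 ± 0.08 in MSCs against OGDR (edgeR adjusted p = 4.06e-09). Pkmyt1, a second inhibitory kinase of Cdk1, had 55.2 ± 4.94 CPM in rTMS-MSCs, against 40.3 ± 1.85 CPM in OGDR libraries, a log2 fold change of 0.45 ± 0.08 (edgeR adjusted p = 0.000114). Of the 13 tested brakes, 6 were called in rTMS-MSCs against OGDR and 2 in each other comparison, each of them higher. Called higher of all tested genes were 16.2% in rTMS-MSCs against OGDR, 7.14% in rTMS-MSCs against MSCs and 11.6% in MSCs against OGDR. At an unadjusted edgeR p under 0.05, 4 brakes were higher and 2 lower in MSCs against OGDR, beside 16.7% and 15.3% of all tested genes. At that p 7 were higher and 1 lower in rTMS-MSCs against OGDR, where the share of all genes was not computed.

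G1 cyclins went both ways. Ccnd3 (cyclin D3) had 233 ± 22.8 CPM in rTMS-MSCs, 221 ± 14.2 CPM in MSCs and 135 ± 9.33 CPM in OGDR libraries, a log2 fold change of 0.79 ± 0.07 in rTMS-MSCs against OGDR (edgeR adjusted p = 3.38e-08). Ccnd1 (cyclin D1) had 818 ± 17.5 CPM in rTMS-MSCs, 893 ± 17.1 CPM in MSCs and 1049 ± 28.4 CPM in OGDR libraries, a log2 fold change of -0.36 ± 0.04 in rTMS-MSCs against OGDR (edgeR adjusted p = 2.25e-06). Of 11 tested G1 genes, 3 were higher and 2 lower in rTMS-MSCs against OGDR, 1 higher and 1 lower in rTMS-MSCs against MSCs, and 4 higher and 3 lower in MSCs against OGDR. DNA replication genes were mostly higher where called: 16 higher and 1 lower of 30 in rTMS-MSCs against OGDR, 6 higher and 2 lower in rTMS-MSCs against MSCs (3 and 2 without rTMS-MSCs 3), and 8, each of them higher, in MSCs against OGDR. Tk1 (thymidine kinase) was higher by 0.39 ± 0.06 on the log2 scale in rTMS-MSCs against OGDR (edgeR adjusted p = 3.23e-05).

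Condensin and cohesin shape and hold sister chromatids, and 6 of their 18 genes were called in rTMS-MSCs against MSCs, each of them lower. Against OGDR 1 was higher and 6 lower in rTMS-MSCs, and 2 were higher and 1 lower in MSCs. Ncapg, a condensin subunit, had 27.4 ± 5.56 CPM in rTMS-MSCs, against 44.8 ± 9.48 CPM in MSCs libraries, a log2 fold change of -0.71 ± 0.14 (edgeR adjusted p = 0.00351). Pds5a, a regulator of cohesin, had 51.9 ± 12.2 CPM in rTMS-MSCs, against 80.9 ± 10.9 CPM in MSCs libraries, a log2 fold change of -0.64 ± 0.13 (edgeR adjusted p = 0.00333). The count was 6 without rTMS-MSCs 3 and 2 with MSCs 3 and rTMS-MSCs 3 both left out. Of 20 other motors and spindle genes, 4 were higher and 4 lower in rTMS-MSCs against OGDR, 2 higher and 6 lower in rTMS-MSCs against MSCs, and 5, each of them higher, in MSCs against OGDR. Between rTMS-MSCs and MSCs there were 1 higher and 2 lower without rTMS-MSCs 3, and with the same 2 libraries left out 1 gene, a higher one, was called. In rTMS-MSCs against OGDR the log2 fold change was 0.39 ± 0.06 for Stmn1, which destabilises microtubules (edgeR adjusted p = 2.29e-05), 0.34 ± 0.05 for Tacc3, a spindle protein (edgeR adjusted p = 4.01e-05), and -0.60 ± 0.10 for Kif18a, a kinesin that damps chromosome movement (edgeR adjusted p = 0.000154). Of 13 centriole and centrosome genes 1 was higher and 4 lower in rTMS-MSCs against OGDR, and 1 higher and 3 lower in rTMS-MSCs against MSCs, with Haus6, an augmin subunit, at -0.65 ± 0.13 on the log2 scale (edgeR adjusted p = 0.00303), and 1 gene, a lower one, called without those libraries. In MSCs against OGDR edgeR called 0 of the 13, with 1 higher and 1 lower at an unadjusted p under 0.05, and DESeq2 called 1 lower.

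The remaining lists were mixed. Among 8 chromosomal passenger and cohesion genes 4 were higher in rTMS-MSCs against OGDR, 1 higher and 1 lower in rTMS-MSCs against MSCs (0 called without rTMS-MSCs 3), and 2 higher in MSCs against OGDR. In rTMS-MSCs against OGDR Birc5 (survivin, a partner of Aurkb) had a log2 fold change of 0.39 ± 0.08 (edgeR adjusted p = 0.000471). Espl1, which encodes separase, the target of securin, had 135 ± 3.17 CPM in rTMS-MSCs, 152 ± 5.23 CPM in MSCs and 122 ± 4.18 CPM in OGDR libraries. It was higher in MSCs against OGDR by 0.31 ± 0.05 on the log2 scale (edgeR adjusted p = 0.000122). Among 33 other kinetochore and centromere genes 8 were higher and 2 lower in rTMS-MSCs against OGDR, 6 higher and 3 lower in rTMS-MSCs against MSCs (3 and 1 without rTMS-MSCs 3, 1 and 0 with MSCs 3 left out too), and 3 higher and 1 lower in MSCs against OGDR. In rTMS-MSCs against OGDR Cenpn, a reader of Cenpa nucleosomes, was at 0.57 ± 0.06 (log2, edgeR adjusted p = 3.52e-07) and Mis18a, which helps load Cenpa, at 0.50 ± 0.08 (log2, edgeR adjusted p = 0.000115). Among 15 anaphase-promoting complex genes 4 were higher and 1 lower in rTMS-MSCs against OGDR, 1 higher and 2 lower in rTMS-MSCs against MSCs (0 and 1 without rTMS-MSCs 3, 0 and 0 with MSCs 3 left out too), and 1 higher in MSCs against OGDR. The subunits Cdc23 and Cdc27 differed in rTMS-MSCs against OGDR by 0.27 ± 0.06 (log2, edgeR adjusted p = 0.000807) and -0.41 ± 0.10 (log2, edgeR adjusted p = 0.00394). Among 12 cytokinesis genes 3 were higher and 1 lower in rTMS-MSCs against OGDR, 1 higher and 2 lower in rTMS-MSCs against MSCs, and 2 higher in MSCs against OGDR. Septin9, a filament protein of the cleavage furrow, had a log2 fold change of 0.46 ± 0.05 in rTMS-MSCs against OGDR (edgeR adjusted p = 4.31e-07). Cit, which encodes citron kinase of the midbody, was at -0.52 ± 0.10 in rTMS-MSCs against MSCs (log2, edgeR adjusted p = 0.00333) and 0.41 ± 0.10 in MSCs against OGDR (log2, edgeR adjusted p = 0.00707).

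Of genes for MuvB, B-Myb, E2F, pocket and NF-Y proteins, 22 were tested: 3 were higher and 5 lower in rTMS-MSCs against OGDR, 3 lower in rTMS-MSCs against MSCs, and 4 higher and 1 lower in MSCs against OGDR. Without rTMS-MSCs 3 there were 2 higher and 3 lower against OGDR and 1 lower against MSCs. With MSCs 3 left out too, 0 were called against MSCs. Mybl2, the B-Myb partner of MuvB, had 139 ± 10.2 CPM in rTMS-MSCs, 132 ± 9.41 CPM in MSCs and 104 ± 5.89 CPM in OGDR libraries, with a log2 fold change of 0.42 ± 0.07 in rTMS-MSCs against OGDR (edgeR adjusted p = 6.84e-05). Lin9, a MuvB core subunit, had 13.9 ± 3.11 CPM in rTMS-MSCs, against 23.4 ± 3.20 CPM in OGDR libraries, a log2 fold change of -0.75 ± 0.15 (edgeR adjusted p = 0.000562).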

How the data were processed

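RNA-seq had been run on 12 libraries, 4 each of rTMS-MSCs, MSCs and OGDR cells. TRIzol extraction, capture of mRNA on oligo(dT) and randomly primed cDNA are stated in the labels' protocols. The deposited values are whole-number read counts per gene, made by the authors; the submitters' processing notes name HISAT2 2.1.0, HTSeq 0.11.2, DESeq2 1.40.1 and the rat build mRatBN7.2. For the strand setting and the annotation release, nothing was given in the sources used here. Summary lines of the counter were left out of library sizes.

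Counts were fitted with the edgeR 4.0.16 quasi-likelihood test (R 4.3.3, TMM scaling, at least 10 counts in a group's worth of libraries and 15 in all), 12 libraries in 1 fit, with contrasts of group means and Benjamini-Hochberg adjustment over 13692 genes at a threshold of 0.05. Levels are CPM, read counts scaled to the TMM-adjusted library size, not scaled by gene length. Intervals are 95% intervals of the fitted log2 fold change. The biological coefficient of variation was 0.0937.

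Named with fold changes are the mitosis genes past the threshold, Cdk1, Ccnb1, Aurkb, Plk1, Mki67 and Top2a whatever their result, and from neighbouring lists only genes among the 4 with the smallest p of a list in a comparison, past the threshold; Foxm1 was added after its values were seen, and the other mitosis genes are given by level. The members and lists were chosen with earlier results of these data known. Alternatives were median-ratio scaling, DESeq2 1.42.0, other filters, fits of 8 libraries, a replicate block, a threshold of 0.01, and leaving out libraries.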

Additional observations from a re-analysis of the deposited data

Results flagged for a closer look

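Of 120 groups of 4 libraries (40 genes in 3 groups), 7 held a library set apart from the other 3 by more than Dixon's 95% critical value for 4 samples, which limits the gap to the nearest library divided by the group's range. Chance flags about 1 in 20 such groups. In library rTMS-MSCs 3, Mad2l1 was at 40.3 CPM with the next lowest at 50.9 CPM, and Ttk was at 60.3 CPM with the next at 70.8 CPM. Kif15 was at 37.3 CPM in rTMS-MSCs 1, with the next highest at 34.9 CPM. In MSCs 2, Cdc25c was at 24.8 CPM with the next highest at 20.9 CPM, and in MSCs 4, Ttk was at 68.9 CPM with the next at 63.2 CPM. In OGDR 1, Nuf2 was at 73.9 CPM with the next highest at 67.6 CPM, and in OGDR 3, Mki67 was at 400.1 CPM with the next at 358 CPM. By edgeR none of these 6 genes was called between any groups; DESeq2 called Cdc25c and Mad2l1 lower in rTMS-MSCs against OGDR.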

How the results depend on the processing

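The 25 called values of mitosis genes were recomputed 200 times under settings that kept all replicates or left out MSCs 3 and rTMS-MSCs 3 together, and passed in 175. They were recomputed 200 times with 1 library left out, and passed in 158. None of the 25 reversed. In MSCs against OGDR, where 5 genes were higher, 9 were called and higher with DESeq2, 9 in a fit of only the 8 libraries compared, 3 at a threshold of 0.01 and 9 with MSCs 3 and rTMS-MSCs 3 left out, with 3 to 5 when 1 library was left out. DESeq2 called 22.1% of all genes it tested. Of all tested genes the fit of 8 libraries called 24.2%, the threshold of 0.01 gave 12.7% and leaving out both libraries 22.7%. In rTMS-MSCs against MSCs, where 6 were called, DESeq2 called 8 (5 higher), the fit of 8 libraries 3 (1 lower) and a threshold of 0.01 gave 3 (1 lower). Of all genes tested in each, 24.9%, 13.1% and 6.27% were called. With MSCs 3 and rTMS-MSCs 3 left out edgeR called 1 (0 higher and 1 lower), beside 4.9% of all tested genes. At an unadjusted edgeR p under 0.05 in that setting 3 were higher and 4 lower, and DESeq2 called 2, both higher. The shares of all genes beside these last counts were not computed. With 1 library left out 3 to 11 were called, 2 to 5 of them higher and 1 to 8 lower. In rTMS-MSCs against OGDR, where 14 were called, DESeq2 called 17 (5 lower), a threshold of 0.01 gave 8 (7 higher and 1 lower), leaving out both libraries gave 12 (1 lower), and leaving out 1 library gave 10 to 15 (9 to 12 higher and 1 to 4 lower). Of all genes tested in each, DESeq2 called 33.5%, the threshold of 0.01 gave 19.9% and leaving out both libraries 28.7%. Leaving out libraries and the fits of 8 libraries use fewer samples. Fits that left out 1 library were counted only where that library belonged to a compared group. Leaving out rTMS-MSCs 3, which is in neither group, gave 24.9% of all tested genes called in MSCs against OGDR. Why the counts changed was not tested. Over all tested genes, counts for rTMS-MSCs against MSCs were 677 with both libraries left out, and 1006 to 3196 with 1 left out, against 2475.

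Of the 120 log2 fold changes of the mitosis genes, 28 changed sign under some setting, none of them called and each at most 0.07 in size as reported. Among the genes given with fold changes whatever their result, these are the values. With both libraries left out, Cdk1 in MSCs against OGDR was 0.0088 and Top2a in rTMS-MSCs against OGDR 0.016. With 1 library left out, Cdk1 in MSCs against OGDR ran from -0.047 to 0.0103, Ccnb1 in the same comparison from -0.00119 to 0.0269, Top2a in rTMS-MSCs against OGDR from -0.074 to 0.0166, and Mki67 there from -0.034 to 0.063.

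Replicate numbers were not treated as pairs. Same-numbered libraries deviated together with correlations of 0.029 to 0.128 between MSCs and OGDR, each MSCs library matching its own number best, a hint from the data and not from the design, and of -0.205 to 0.032 and -0.174 to 0.060 in the comparisons of rTMS-MSCs with MSCs and with OGDR. With a replicate block 5 mitosis genes were called in MSCs against OGDR, 5 in rTMS-MSCs against MSCs, without Cenpa (edgeR adjusted p = 0.0712), and 14 in rTMS-MSCs against OGDR, and 2577, 1995 and 4185 of all tested genes in these comparisons.

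Foxm1, with 6 to 21 reads a library, had the fewest reads of the 40 genes and the widest interval. With 4 libraries a group the median SE of a log2 fold change over the 40 genes was 0.06, and the smallest called change was 0.14.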
